A study of Mus musculus with 6 samples.

Results

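Apol9a, Apol9b, Lgals3bp, Samd9l, Trim30a, Rtp4 and Xaf1 are 7 of the less-studied interferon-stimulated genes (ISGs) of the mouse, and they are described here in mouse embryonic fibroblasts (MEFs) with and without the RNase H2 subunit gene Rnaseh2b. They were selected with their measured values on these arrays already known, out of 19057 genes with a probe of a single symbol, and every probe annotated to them was taken (9 probes, with 2 each for Rtp4 and Xaf1 and 1 for each of the others). The values below that compare the genotypes therefore describe the 7 genes and are no test of them. Signal above background on 1 or more arrays was found for 5 of the 7, against 10160 (53.3%) of all genes, and not for Rtp4 and Xaf1.

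RNA was hybridised to 1-colour Illumina MouseWG-6 v2 BeadChips, which read each transcript through a short oligonucleotide probe. The Rnaseh2b-/- group held 2 lines, homozygous for a null allele made by Cre excision of an exon, and the Rnaseh2b+/+ control group held 4 lines. Both groups were p53-/- and C57BL/6J, each line came from a single E10.5 embryo taken whole, and the cells were grown at 3% oxygen and 5% CO2, with RNA taken 20 h after a change of medium. The Rnaseh2b-/- lines put on arrays had been picked, from a larger number of such lines, for stronger ISG induction, so the size of any ISG difference between the groups carries that choice too. The labels give the lines as biological replicates. No agent was added, and the controls share the loss of p53. Because each line derives from a whole embryo, a difference in signal can come from the number of cells of a type or from the RNA per cell, and these cannot be told apart in bulk RNA.

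RNase H2 removes ribonucleotides from DNA, and its loss in mouse cells and in Aicardi-Goutières syndrome is known for switching on type I interferon signalling. Interferon binds a receptor that activates JAK kinases, transcription factors assemble into a complex, and this complex binds the interferon-stimulated response element (ISRE), a DNA motif built from repeated GAAA elements, in the promoters of ISGs. Single IRF proteins can read such elements as well. In fibroblasts the products of ISGs restrict viruses, present antigen and damp the response itself.

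The promoters are shown because the search for GAAA elements in them did not enter the choice of the genes. The genes were, however, chosen as ISGs, a class known for the ISRE, so the matches are not independent of that choice. The share among other ISGs was not computed. Each stretch runs from 100 bases before the annotated start site to 50 bases from it on (RefSeq, GRCm38.p6), 5′ to 3′ on the strand of the gene, and capitals mark pairs of GAAA elements 1 to 3 bases apart, which read TTTC where they lie on the other strand. The promoter table held 6 of the 7 genes, and Rtp4 was not matched.
Apol9a (chr15:77411031-77411180, minus strand): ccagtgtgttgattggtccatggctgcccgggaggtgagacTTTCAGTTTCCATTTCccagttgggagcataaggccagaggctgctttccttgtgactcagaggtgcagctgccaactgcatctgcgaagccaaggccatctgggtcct
Apol9b (chr15:77728972-77729121, plus strand): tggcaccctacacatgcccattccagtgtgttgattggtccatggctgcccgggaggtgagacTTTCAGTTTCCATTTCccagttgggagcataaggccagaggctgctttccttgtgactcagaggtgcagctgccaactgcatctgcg
Trim30a (chr7:104465144-104465293, minus strand): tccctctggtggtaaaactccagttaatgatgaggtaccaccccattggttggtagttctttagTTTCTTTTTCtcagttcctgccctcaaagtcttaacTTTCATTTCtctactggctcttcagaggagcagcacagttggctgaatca
Lgals3bp (chr11:118401910-118402059, minus strand): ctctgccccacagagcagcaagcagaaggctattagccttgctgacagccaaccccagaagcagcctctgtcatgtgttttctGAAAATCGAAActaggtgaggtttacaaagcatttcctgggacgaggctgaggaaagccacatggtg
Samd9l (chr6:3399522-3399671, minus strand): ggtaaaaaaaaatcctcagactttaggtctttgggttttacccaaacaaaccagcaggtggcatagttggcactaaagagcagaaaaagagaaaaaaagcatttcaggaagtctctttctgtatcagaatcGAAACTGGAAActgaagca
Xaf1 (chr11:72301529-72301678, plus strand): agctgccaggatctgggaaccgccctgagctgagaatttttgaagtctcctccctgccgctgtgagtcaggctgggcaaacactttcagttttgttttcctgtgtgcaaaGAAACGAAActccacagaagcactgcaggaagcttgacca

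The ISRE core searched was GAAANNGAAA on both strands, over windows of 250 bases before and 50 from the start site on. It was found in Apol9a, Apol9b and Trim30a, 3 of the 6 promoters, and in 3.44% of 32851 windows of the same length in the table. In Apol9a it lay from -59 to -50 and again, overlapping the first, from -53 to -44, counted from the start site as 0. In Apol9b the same overlapping pair lay from -37 to -28 and from -31 to -22. The windows of Apol9a and Apol9b were shifted by 22 bases against each other and were identical at 278 of 278 overlapping bases, so these promoters are copies of one sequence. Counted once, they make the share 2 of 5. Trim30a held the core from -36 to -27. These positions are those of the first window listed for each gene. A second window, with another start site, put the overlapping pair from -105 to -90 in Apol9a and from -86 to -71 in Apol9b. In Trim30a it put the core from 2 to 11, downstream of the start.

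After the sequences had been read, the search was widened to spacings of 1 and 3 bases, and these matches are given as a description. GAAANGAAA, found in 3.17% of windows, was present in Trim30a from 0 to 8 and in Xaf1 from 10 to 18, both downstream of the start. GAAANNNGAAA, found in 2.75% of windows, was present in Lgals3bp from -17 to -7 and in Samd9l from 31 to 41. With any of these spacings, 6 of 6 promoters held a pair (5 of 5 with Apol9a and Apol9b counted once), beside 8.61% of windows. The widening after reading fixed that count, and nothing is drawn from it. In the first window listed for each gene the pairs lay between -59 and 41. A match names letters in a window and does not show that a factor binds there.

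**Figure D1:**
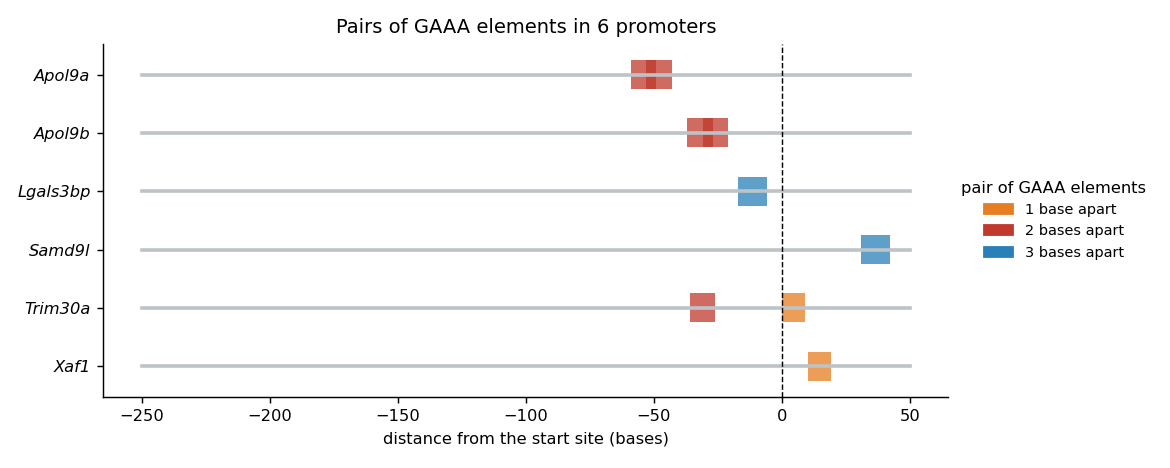
Pairs of GAAA elements in the promoters of 6 genes, by distance from the annotated start site in bases, with colour for the number of bases between the elements. In the first window listed for each gene, which is the one drawn, all the pairs lie between -59 and 41. The overlapping pair of Apol9a is that of Apol9b shifted by 22 bases.

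Rnaseh2b itself checked the labels. Its mean normalized log2 signal was 5.48 ± 0.07 (SD, n = 2) in Rnaseh2b-/- lines and 9.49 ± 0.26 (SD, n = 4) in controls, a log2 difference of -4.01 (SE 0.19). Of its 2 probes, 1 was above background in neither Rnaseh2b-/- line and the other in 1 of them. The size of this difference is therefore limited by the floor. Each array had 15519 to 16114 probes above background (detection p under 0.01). The median intensity before normalization was 107.6 and 115.2 on the Rnaseh2b-/- arrays and 124.1 to 129.3 on the controls, so the groups did not overlap in it. Lines of a group correlated at r of 0.957 or more across the genes tested. All 12 fibroblast markers examined were above background in all 6 lines. No muscle or epithelial marker passed the threshold of the limma fit, but several stood high in Rnaseh2b-/- lines, and their values are given beside the results they accompany.

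Apol9a and Apol9b are neighbouring copies on chromosome 15 that encode apolipoprotein L proteins, which in the mouse are intracellular lipid-binding proteins. The normalized log2 signal of Apol9a was 8.71 and 7.78 in Rnaseh2b-/- replicates 1 and 2, and 5.76, 5.85, 5.78 and 5.87 in control replicates 1 to 4. Its probe was above background on all 6 arrays, and the controls spanned only 0.115 log2 units, less than the 1.91 between the lower Rnaseh2b-/- line and the highest control. The mean log2 signal was 8.25 ± 0.66 (SD, n = 2) against 5.82 ± 0.05 (SD, n = 4), a log2 difference of 2.43 (SE 0.25) or 5.39-fold. Against the control mean, Rnaseh2b-/- replicate 1 was 7.46-fold and replicate 2 was 3.90-fold higher. The control signals were only just above background, with detection p from 0.00107 to 0.00641 against the threshold of 0.01. Without background correction the log2 difference of Apol9a was 1.40, so these folds depend on that correction. Whether the narrow span of the controls reflects likeness of the lines or signal close to the floor was not tested.

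The log2 signal of Apol9b was 7.46 and 6.68 in the Rnaseh2b-/- lines and 5.34, 4.79, 5.28 and 5.11 in the controls. Both Rnaseh2b-/- lines were above background and none of the 4 controls was (detection p from 0.0203 to 0.158), and the groups did not overlap. The measured means were 7.07 ± 0.55 (SD, n = 2) and 5.13 ± 0.25 (SD, n = 4), a log2 difference of 1.94 (SE 0.26). Since the control signal was not well above background, the level there is only bounded. With the background correction used, the mean of the Rnaseh2b-/- lines was at least 2.84-fold higher. This bound sets that mean against the lowest signal of a detected probe, or the control's own signal where that was higher. Without background correction the log2 difference of Apol9b was 0.83, so the bound depends on that correction. Over the 6 lines the signals of Apol9a and Apol9b correlated at r = 0.978, a description of points that share 6 libraries.

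The probes of Apol9a and Apol9b are 1 per gene, and their sequences were not analysed here, so whether each also detects the transcript of the other copy was not tested. The signal of one probe is not set against that of the other. In the Rnaseh2b-/- lines both probes read higher in replicate 1 than in replicate 2. Other members of the family stayed dim: of 12 further apolipoprotein L genes listed, 9 had a probe and only Apol7a was above background, on 2 arrays. Apol7a had a log2 difference of 0.45 (SE 0.25, limma adjusted p = 0.399), its Rnaseh2b-/- values of 5.98 and 5.34 overlapping control values of 5.27, 5.24, 4.82 and 5.53. Apol6, Apol7b, Apol7c, Apol8, Apol10a, Apol10b, Apol11b and Apold1 were not above background on any array.

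Lgals3bp encodes a secreted glycoprotein that binds galectin-3 and matrix proteins. Its log2 signal was 10.51 and 10.10 in Rnaseh2b-/- lines and 8.79, 7.95, 8.11 and 8.17 in controls, above background on all 6 arrays. Control replicate 1 stood highest among the controls and still lay 1.30 below the lower Rnaseh2b-/- line. The means were 10.30 ± 0.29 (SD, n = 2) and 8.26 ± 0.37 (SD, n = 4), a log2 difference of 2.04 (SE 0.26) or 4.12-fold. The Rnaseh2b-/- lines were 4.76-fold and 3.58-fold above the control mean and differed by 0.41 on the log2 scale, within the 0.840 that the controls spanned.

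No listed partner of Lgals3bp passed the threshold of the limma fit, an adjusted p under 0.05. Of 15 galectins and ligands 14 were tested, with a median log2 difference of 0.08. By unadjusted p under 0.05, 3 were higher and 2 lower, beside 7.99% and 9.13% of all genes. Lgals2, which encodes a galectin, had a measured log2 difference of 0.81 (SE 0.15, adjusted p = 0.0772), and was not above background in any control, which leaves it as at least 1.24-fold higher. Nid2, a basement membrane nidogen, was at 0.71 (SE 0.18, adjusted p = 0.129). For both genes the 2 Rnaseh2b-/- lines lay above all 4 controls, as they did for 12.5% of all genes tested.

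Samd9l encodes a cytoplasmic protein with a sterile alpha motif that restricts poxviruses and restrains growth of blood cells. Its log2 signal was 10.33 and 9.92 in Rnaseh2b-/- lines and 9.06, 8.78, 8.80 and 8.51 in controls, above background on all 6 arrays. The groups did not overlap, and the gap between them was 0.858. The means of 10.12 ± 0.29 (SD, n = 2) and 8.79 ± 0.22 (SD, n = 4) gave a log2 difference of 1.34 (SE 0.20) or 2.52-fold. By line it was 2.91-fold and 2.19-fold above the control mean.

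Trim30a encodes a ubiquitin ligase of the tripartite motif family that in the mouse restrains NF-κB signalling. Its log2 signal was 6.91 and 6.03 in Rnaseh2b-/- lines, both above background, and 4.87, 4.74, 4.58 and 5.00 in controls, none of which was (detection p from 0.0726 to 0.348). The groups did not overlap, with a gap of 1.03. The measured means were 6.47 ± 0.62 (SD, n = 2) and 4.80 ± 0.18 (SD, n = 4), a log2 difference of 1.67 (SE 0.25). With the background correction used, the mean of the Rnaseh2b-/- lines was bounded as at least 1.87-fold higher. Without that correction the log2 difference of Trim30a was 0.63, so the bound depends on it.

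Around Trim30a, the cluster of related genes was mostly dim. Of 12 listed genes of the Trim30 cluster 7 had a probe, and Trim30b, Trim30d, Trim12c, Trim34a and Trim6 were not above background on any array. Of the 2 tested, neither passed the threshold and 1 was higher at an unadjusted p under 0.05 (limma), beside 7.99% of all genes. Trim21, a cytosolic antibody receptor and ubiquitin ligase, was higher in both Rnaseh2b-/- lines than in any control, as were 12.5% of all genes. Its log2 difference was 0.60 (SE 0.14, limma adjusted p = 0.121). Trim68 had a log2 difference of -0.14 (SE 0.22, adjusted p = 0.781). Among 6 tested ubiquitin ligases of the wider TRIM family that act in antiviral signalling none passed. Of these, 1 was higher at an unadjusted p under 0.05, beside the same 7.99% of all genes. Trim25, an activator of RIG-I, was at 0.69 (SE 0.17, adjusted p = 0.123) and Trim27 at 0.07 (SE 0.18, adjusted p = 0.859).

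**Figure D2:**
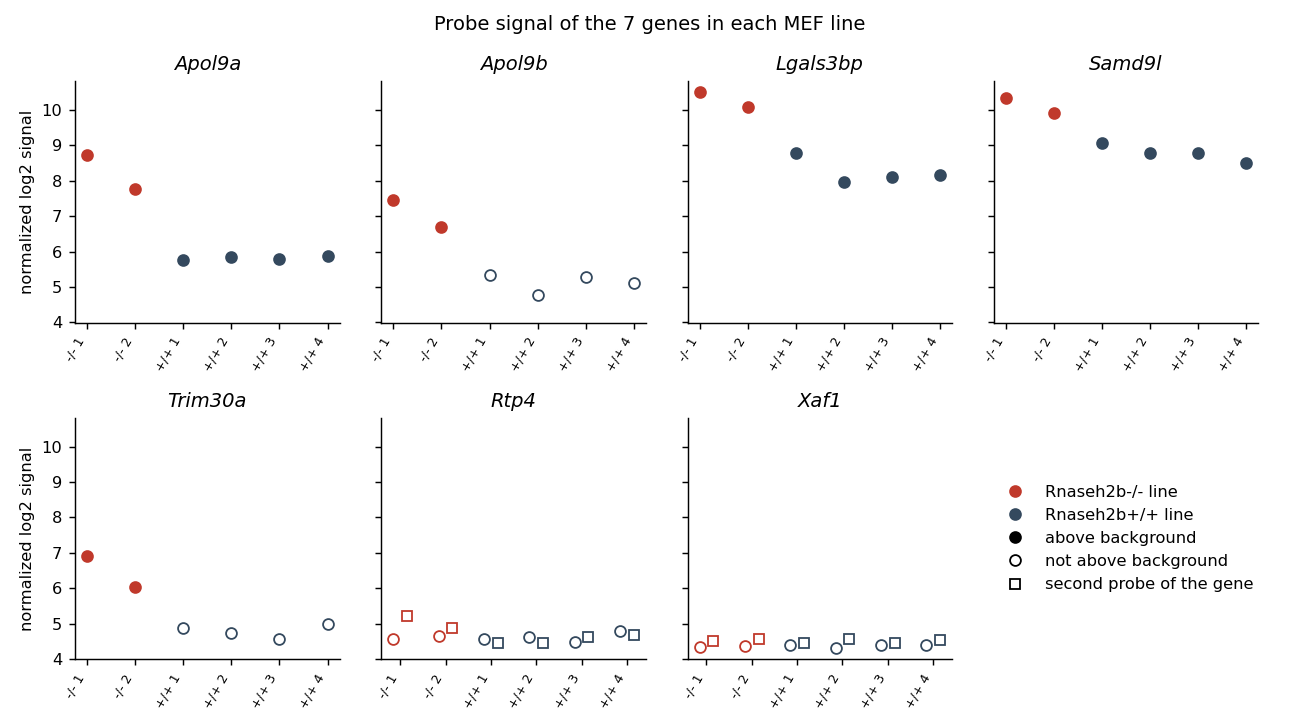
Normalized log2 signal of each probe of the 7 genes in the 6 MEF lines, with Rnaseh2b-/- lines in red and controls in dark blue, filled where the probe was above background (detection p under 0.01) and open where it was not. For Apol9a, Apol9b, Lgals3bp, Samd9l and Trim30a both red points lie above the 4 controls, while all points of Rtp4 and Xaf1 are open.

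Rtp4 encodes a zinc-binding chaperone of the receptor transporter family that inhibits RNA viruses. Its first probe read 4.57 and 4.66 in Rnaseh2b-/- lines and 4.55, 4.62, 4.47 and 4.79 in controls, with detection p from 0.143 to 0.605. Its second probe read 5.21 and 4.86 in Rnaseh2b-/- lines and 4.46, 4.46, 4.63 and 4.67 in controls, with detection p from 0.0278 to 0.656. On the first probe the groups overlapped and on the second they did not, but neither probe was above background on any array, so no fold is given. Rtp1, Rtp2 and Rtp3, the other 3 receptor transporter genes listed, were likewise not above background in any line.

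Xaf1 encodes an antagonist of the caspase inhibitor XIAP. Its first probe read 4.34 and 4.36 in Rnaseh2b-/- lines and 4.39, 4.31, 4.40 and 4.39 in controls (detection p from 0.857 to 0.998). The second read 4.51 and 4.57 against 4.46, 4.58, 4.47 and 4.53 (detection p from 0.346 to 0.635). The groups overlapped on both probes and all values were within background, so a change in Xaf1 was not detectable here. Of the 7 listed inhibitors of apoptosis and their antagonists 6 were tested, none passed the threshold and none reached an unadjusted p under 0.05 (limma), with a median log2 difference of -0.04. Xiap, the partner of Xaf1, was at -0.45 (SE 0.25, adjusted p = 0.390). Both its Rnaseh2b-/- values lay below the lowest signal of a detected probe on their arrays, so this difference is at the floor. Diablo, which encodes a mitochondrial antagonist of such inhibitors, was at 0.24 (SE 0.16, adjusted p = 0.470).

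Read together, the 5 detected genes had measured log2 differences of 1.34 to 2.43 with a median of 1.94, while the median over all 10160 genes tested was -0.02. In all 5 both Rnaseh2b-/- lines lay above all 4 controls, as in 12.5% of all genes. The limma fit called 4 of them higher (Apol9a, Apol9b, Lgals3bp and Samd9l) and 0 lower, beside 36 genes (0.354%) higher and 16 (0.157%) lower of all tested. Since these genes were picked from this contrast, nothing is read from the count. At an unadjusted p under 0.05, 7.99% of all genes were higher and 9.13% lower. With median scaling in place of quantile normalization the split over all genes was 29 higher and 25 lower, and with cyclic loess 32 and 8.

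The count of 4 depended on the processing and on single lines. Samd9l was near the threshold as reported (limma adjusted p = 0.0481). It was not called with cyclic loess, with the brightest probe or with median scaling, where Trim30a was called. Apol9b was not called without background correction. All 5 were called when detection on at least 2 arrays was required, and with variance trend and robust fitting. Without Rnaseh2b-/- replicate 1 only Apol9a was called, and without control replicate 2, 3 or 4 none was, although all 5 stayed higher at an unadjusted p under 0.05 in each of these fits. Without Rnaseh2b-/- replicate 2, or without control replicate 1, all 5 were called. Where a Rnaseh2b-/- line was left out, the other was alone in its group and was assumed to vary like the controls. Over 17 alternatives the log2 difference stayed above 0 for each of the 5, from 1.40 to 2.91 for Apol9a, 0.83 to 2.35 for Apol9b, 1.75 to 2.25 for Lgals3bp, 1.13 to 1.54 for Samd9l and 0.63 to 2.13 for Trim30a.

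**Figure D3:**
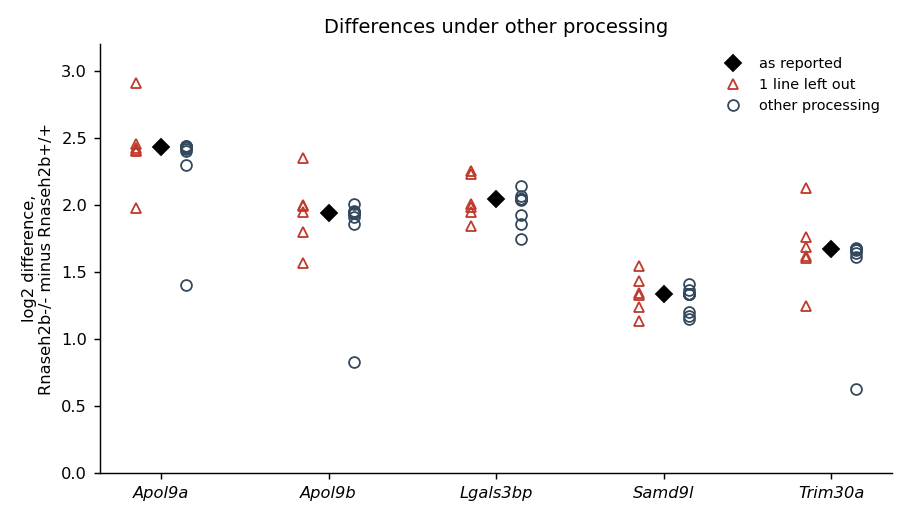
Log2 difference (Rnaseh2b-/- minus Rnaseh2b+/+) of the 5 detected genes as reported (black diamonds), with 1 line left out (red triangles) and under other processing (circles). All points lie above 0, and the lowest for Apol9b and Trim30a are 0.83 and 0.63.

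The Rnaseh2b-/- lines kept a fixed order across the set. Replicate 1 was above replicate 2 in 5 of 5 detected genes, by 0.41 to 0.94 on the log2 scale, in 39 of 51 other listed ISGs (76.5%) and in 48.4% of all genes tested. Among controls no line was always highest: replicate 1 was highest for Apol9b, Lgals3bp and Samd9l and replicate 4 for Apol9a and Trim30a. Every pair of the 5 genes correlated over the 6 lines at r of 0.941 to 0.987, with the pair of Samd9l and Trim30a lowest and that of Apol9a and Trim30a highest. These points share the split between the genotypes on which the genes were picked.

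Muscle and epithelial markers were read in the same lines, and none of either list passed the threshold (limma). Over all genes tested, 7.99% were higher at an unadjusted p under 0.05. Averaged over the 5 genes, the log2 signal relative to the control mean was 2.23 in Rnaseh2b-/- replicate 1 and 1.54 in replicate 2, and ran from -0.14 to 0.21 in controls. For skeletal and cardiac muscle markers (10 of 14 tested, 8 of them higher at an unadjusted p under 0.05) the mean was 4.75 and 0.65 in these lines and ran from -0.42 to 0.59 in controls, so replicate 2 lay close to the highest control. Des, which encodes the muscle filament desmin, had a log2 difference of 3.08 (SE 0.9999, adjusted p = 0.206), and Myl1, a myosin light chain, one of 3.36 (SE 1.15, adjusted p = 0.225). For epithelial markers (6 of 10 tested, 4 higher at an unadjusted p under 0.05) it was 2.44 and 1.46, and from -0.41 to 0.36 in controls. Krt8, a keratin of simple epithelia, had a log2 difference of 3.16 (SE 0.51, limma adjusted p = 0.0601) and Krt7, another such keratin, one of 2.31 (SE 0.40, adjusted p = 0.0736), while Epcam, which encodes an epithelial adhesion molecule, was not above background on any array. The mean of the 6 tested epithelial markers thus lay near that of the 5 genes in both Rnaseh2b-/- lines. The 4 that were higher are all keratins. The other tested markers, Cdh1 and Cldn7, had log2 differences of 0.59 (SE 0.35) and 0.02 (SE 0.20). Cldn6, Esrp1 and Spint2 were, like Epcam, not above background on any array. The part of either cell type in the result was not tested.

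Most markers of leukocytes and endothelium were at background. Of 14 macrophage and leukocyte markers 4 were tested and none passed the threshold (none at an unadjusted p under 0.05, limma), with means of 0.09 and -0.21 in Rnaseh2b-/- lines and -0.44 to 0.63 in controls. Cd14 had a log2 difference of 0.53 (SE 0.23, adjusted p = 0.292) and Lyz2 one of -0.83 (SE 0.50, adjusted p = 0.434). Lyz2 was above background in 1 control and in no Rnaseh2b-/- line, so its difference is at the floor. Ptprc, Adgre1, Csf1r, Itgam, Tyrobp, Fcer1g, Aif1 and Cd52 were not above background on any array. Of 7 endothelial markers 2 were tested (means of 0.22 and 0.54 in Rnaseh2b-/- lines, -0.30 to 0.18 in controls), and Pecam1, Cdh5, Kdr, Emcn and Vwf were not above background. Neither passed the threshold and they went opposite ways: Esam, a junction molecule, had a log2 difference of 1.88 (SE 0.37, adjusted p = 0.0835), with 1 of the 2 thus higher at an unadjusted p under 0.05, and Tek, an angiopoietin receptor, one of -1.12 (SE 0.53, adjusted p = 0.329). The mean of the 12 fibroblast markers was -0.20 and 0.32 in Rnaseh2b-/- lines and -0.09 to 0.09 in controls. Of these 12, 1 rose and none fell, and the median log2 difference was -0.13. By unadjusted p under 0.05, 2 were higher and 1 lower, beside 7.99% and 9.13% of all genes. The one that rose was Dcn, which encodes the matrix proteoglycan decorin (log2 difference 1.92, SE 0.28, adjusted p = 0.0459).

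**Figure D4:**
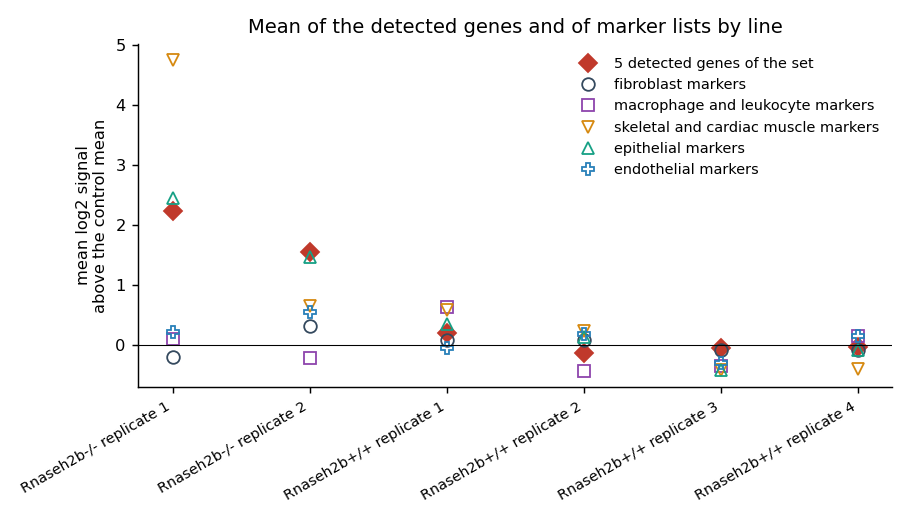
Mean normalized log2 signal of the 5 detected genes and of 5 lists of cell type markers in each line, relative to the mean of the controls. In Rnaseh2b-/- replicate 1 the muscle markers stand at 4.75 and the 5 genes at 2.23, while in replicate 2 they stand at 0.65 and 1.54.

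Genes of the interferon pathway upstream of the set were compared with it by their counts. Of 16 interferon ligand genes 15 had a probe and 2 were tested, and neither passed the threshold or reached an unadjusted p under 0.05 (limma). Ifnz, which encodes an interferon of the zeta type, had a log2 difference of -0.26 (SE 0.21, adjusted p = 0.552), and Ifnab was at -0.21 (SE 0.23, adjusted p = 0.676). Of receptors and kinases 7 of 8 were tested and none reached an unadjusted p under 0.05, with a median of -0.07. Il10rb, a receptor chain for type III interferon, was at 0.27 (SE 0.19, adjusted p = 0.493) and Tyk2, a kinase of the receptor, at -0.13 (SE 0.17, adjusted p = 0.726).

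The transcription factors had a median log2 difference of 0.46 over 7 tested of 9 listed. None passed the threshold, with 4 higher and 1 lower by unadjusted p under 0.05, beside 7.99% and 9.13% of all genes. Stat2, a subunit of the complex that binds the ISRE, was at 7.19 and 6.47 in Rnaseh2b-/- lines and 6.09, 6.29, 6.16 and 6.20 in controls, a log2 difference of 0.65 (SE 0.21, limma adjusted p = 0.202). Irf5 was at 0.53 (SE 0.18, adjusted p = 0.227). All its control values lay below the lowest signal of a detected probe on their arrays, so this difference is at the floor. Of 6 inhibitors of interferon signalling 1 rose, with 1 higher and 1 lower by unadjusted p under 0.05 and a median log2 difference of 0.16. Usp18, which strips ISG15 from proteins and blocks the interferon receptor, was the one that rose. Its signal was 8.65 and 7.97 in Rnaseh2b-/- lines and 5.64, 5.06, 5.30 and 5.71 in controls, a log2 difference of 2.88 (SE 0.26, adjusted p = 0.0141).

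Among 75 other listed ISGs 51 were tested, 7 rose and none fell (limma, adjusted over all genes tested), where 0.354% of all genes rose and 0.157% fell. By unadjusted p under 0.05 the counts were 30 higher and none lower, beside 7.99% and 9.13% of all genes. Their median log2 difference was 0.68, and in 31 of 51 (60.8%) both Rnaseh2b-/- lines lay above all controls, as in 12.5% of all genes. The list was drawn up with earlier results of these arrays known. Those that rose were Ccl5, a T cell chemokine (log2 difference 3.80, SE 0.32, adjusted p = 0.0141), Isg15, a ubiquitin-like modifier (3.46, SE 0.36, adjusted p = 0.0258), Ifi27l2a (3.38, SE 0.30, adjusted p = 0.0141), Oas1g, a 2′-5′-oligoadenylate synthetase (2.59, SE 0.19, adjusted p = 0.00954), Bst2, the tetherin of budding virions (2.26, SE 0.25, adjusted p = 0.0278), Psmb9, an immunoproteasome subunit (1.50, SE 0.17, adjusted p = 0.0288), and Igtp, an immunity-related GTPase (1.27, SE 0.18, adjusted p = 0.0458). Ifi27l2a, Oas1g and Psmb9 were not above background in any control, so their measured differences stand as bounds of at least 7.43-fold, 3.17-fold and 1.79-fold higher.

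**Figure D5:**
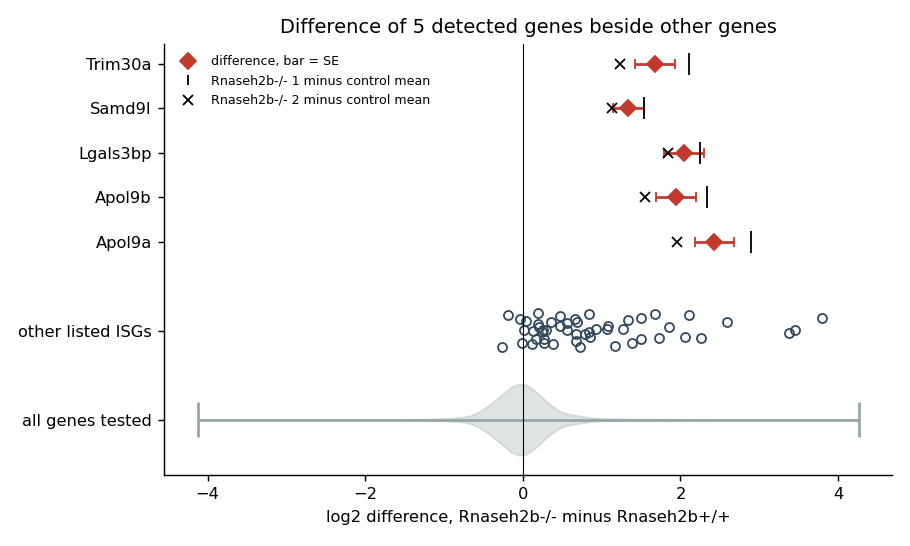
Log2 difference (Rnaseh2b-/- minus Rnaseh2b+/+) of the 5 detected genes with its SE, the 51 other tested ISGs as circles and the distribution of all 10160 genes tested. The 5 genes run from 1.34 to 2.43, Rnaseh2b-/- replicate 1 (bar) lies above replicate 2 (cross) in each, and the bulk of all genes lies around 0.

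Genes whose profile over the 6 lines was most like the mean profile of the 5 genes were named by Pearson's r. That mean profile holds the split between the genotypes on which the 5 genes were picked. The genes named have the highest r of all genes tested outside the set, so their r is high by choice. Shared regulation was not tested. Pkhd1l1 and Ints13, a subunit of the Integrator complex, each had r = 0.997, and Sh3tc2, Oas1g and Chn2, a Rac GTPase-activating protein, each had r = 0.995. Pkhd1l1 had a log2 difference of 1.41 (SE 0.20), Sh3tc2 of 1.58 (SE 0.22) and Chn2 of 2.33 (SE 0.25), whereas Ints13 differed by only 0.34 (SE 0.12), so that likeness in shape came with very unequal size. Pkhd1l1 and Chn2 were not above background in any control and are bounded as at least 1.40-fold and 2.72-fold higher. Of these 5 genes only Oas1g is on the list of ISGs.

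The genes nearest to the 7 on their chromosomes were read for position. Up to 3 tested genes were taken on each side, with none on the lower side of Samd9l. Of these 33 genes outside the set none passed the threshold (limma), with 5 higher and 2 lower by unadjusted p under 0.05 and a median log2 difference of 0.13. In 5 of 33 both Rnaseh2b-/- lines lay above all controls, beside 12.5% of all genes, and 7.99% of all genes were higher by unadjusted p. Beside Apol9a and Apol9b, Myh9 and Txn2 had log2 differences of 0.01 (SE 0.14) and 0.00 (SE 0.16). Mb, the muscle myoglobin gene near Apol9a, was the exception in size at 2.35 (SE 0.97, adjusted p = 0.283), with a standard error larger than that of any of the 5 genes.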

How the data were processed

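RNA of 2 Rnaseh2b-/- and 4 Rnaseh2b+/+ MEF lines was measured on Illumina arrays. The authors exported bead summaries from BeadStudio and deposited, for each probe, the intensity, neither background-corrected nor normalized, and a detection p-value against negative controls. A second deposited table holds log2 values after the authors' run of neqc, which corrects background and quantile-normalizes. The intensity was processed again with neqc of limma 3.58.1 in R 4.3.3, with an offset of 16, the background being estimated from the detection p-values. The log2 values obtained differed from the deposited ones by at most 0.109. Precision is limited by the number of arrays.

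Of 45281 probes, 34885 had 1 gene symbol, 18 several and 10378 none, and only the first were used, with symbols updated through RefSeq. Probes with a detection p under 0.01 on at least 1 array were averaged per gene. limma fitted 2 groups with variances moderated across genes (residual degrees of freedom 4, prior 3.07), p-values were adjusted by Benjamini-Hochberg over all genes tested, and the threshold was 0.05. p-values measure the spread between lines that the labels call biological replicates. With 2 lines against 4, an exact permutation test cannot go below p = 0.0667, so none was run for single genes. A gene not above background in a group was given as a bound, unless the mean of the other group lay below the bounding signal. For such genes, among them Irf5, Xiap and Lyz2, only the measured difference is given, at the floor. Each bound is on a group mean under the background correction used. The fit was tested on simulated arrays.

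The 7 genes and all lists were chosen with earlier results of these data known. Named genes were the 7, Rnaseh2b, the 5 with the most similar profile, tested relatives of the 7 and, of each list, those past the threshold or the 2 with the smallest p. Mb, Myh9, Txn2, Cdh1, Cldn7, the undetected relatives and the undetected markers were named after their values were seen. Promoters came from the RefSeq table of GRCm38.p6, taking the first window listed for a gene. Identity of the proteins and of the probe sequences was not analysed here. A further motif search is not reported here. Alternatives were other filters, 4 other normalizations, 2 other treatments of probes, 2 variance models, leaving out single lines and a block for the replicate number.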

Additional observations from a re-analysis of the deposited data

How the results depend on the processing

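The members' median log2 difference of 1.94 fell to 1.17 without background correction and was 1.67 without the filter on dim probes, when Rtp4 and Xaf1 entered. With 1 line left out it ran from 1.57 to 2.25. The number of the 7 genes called, 4 as reported, was 1 without the filter and ran from 0 to 5 with 1 line left out. Over all genes, 36 were higher and 16 lower as reported. Without the filter these were 18 and 9, with variance trend and robust fitting 55 and 36, and with 1 line left out they ran from 0 to 293 and from 1 to 112. Genes lower numbered 27 when detection on at least 2 arrays was required, 25 with median scaling, 8 with cyclic loess and 26 with each probe tested. Median scaling moved the median of all genes to -0.16, and that of the 5 genes was 1.86. The labels link same-numbered lines of the 2 genotypes by number only. Correlations of their deviations were 0.0959 and 0.0611. Both use the same contrast of the 2 Rnaseh2b-/- lines, so they cannot show whether the numbers mark a shared batch or litter. With the replicate block limma called 0 of the 7 genes, 0 genes higher and 0 lower. That fit has fewer residual degrees of freedom than the 4 of the main fit. Control replicates 3 and 4, without a same-numbered partner, add nothing to its contrast. By unadjusted p under 0.05 it gave 448 genes higher and 461 lower, with all 5 detected genes among the 448. No alternative turned the direction of any of the 5 genes. Signal over background limits Apol9b and Trim30a to bounds and leaves Rtp4 and Xaf1 without a measured change. The cause of these shifts was not tested.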
